A study of Solanum lycopersicum x Solanum pennellii and Solanum lycopersicum and Solanum pennellii with 305 samples.

Results

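IL7-5 is an introgression line (IL) of tomato, which carries a segment of chromosome 7 of the wild relative Solanum pennellii (LA0716) in the background of the cultivar M82 (S. lycopersicum). IL7-5-1, IL7-5-5, IL7-5-P5 and IL7-5-P75 are 4 lines numbered under it and are called its sublines here. The libraries were chosen by these 5 names, which gave 19 libraries, beside 286 of other genotypes that were analysed with them: 3 of IL7-5, numbered 1, 3 and 4, and 4 of each subline. Each line was compared with the 4 libraries of M82, the parent that all of them share, and each subline was also compared with IL7-5 and with the other sublines. The 3 libraries of S. pennellii are given beside them as the donor parent. RNA-seq was done on root tips of both parents and of 75 ILs, without any treatment that differed between the lines. A library was made from 7 to 14 pooled root tips of 1 cm, cut from seedlings 3 to 4 days after germination on vertical plates, so it stands for a pool of seedlings and not for a plant. The reads counted on genes ranged over 3031086 to 7365460 per library in the 5 lines (median 3969446), and over 3078847 to 4835467 in M82 (median 4198982). The largest total belonged to replicate 4 of IL7-5. The labelled tissue was not checked against marker genes, because no table used here pairs the gene identifiers with gene names.

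An IL carries the wild allele of every gene in its introgressed segment, so a gene inside the segment can differ in expression because its own regulatory sequence differs, which geneticists call an effect in cis. A gene elsewhere in the genome has the same allele as M82 and can differ in trans, through a product of the segment, or because the line differs from M82 in DNA outside the labelled segment. Sublines hold parts of a segment, so the genes that differ in each of them help to show where their segments begin and end. Tomato identifiers number the genes in their order along a chromosome, and that order is used here as the map of chromosome 7. A gene of interest in the region is Solyc07g008570, SlPAP27, which encodes a purple acid phosphatase, a member of a family of metal-containing enzymes that release phosphate from organic phosphate compounds.

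Genes were compared by edgeR's quasi-likelihood test, and p-values were adjusted by the method of Benjamini and Hochberg. A gene was called where this adjusted p did not exceed 0.01. Of 19591 genes tested, 1410 lie on chromosome 7. IL7-5 differed from M82 in 57 genes of chromosome 7, 32 of them higher and 25 lower, which is 4.04% of the chromosome, against 0.623% of all genes called in this comparison. IL7-5-P75 differed in 47 genes of chromosome 7 (23 higher and 24 lower, against 0.449% of all genes), and IL7-5-5 in 41 (17 higher and 24 lower, against 0.357% of all genes). IL7-5-1 differed in 6 genes, 4 higher and 2 lower, which is 0.426% of chromosome 7, against 0.138% of all genes. In IL7-5-P5 no gene of chromosome 7 was called, against 0.0357% of all genes. In that line 47 chromosome 7 genes, or 3.33%, had an unadjusted p under 0.05, as did 3.29% of the genes off chromosome 7, and edgeR's exact test on the 23 libraries of the 5 lines and M82 called 1 chromosome 7 gene where DESeq2 called 0. Some counts rested on single libraries. Without IL7-5 replicate 3 the count of IL7-5 was 36, and without M82 replicate 3 the count of IL7-5-1 was 2. Replicate 4 of IL7-5, replicate 2 of IL7-5-1 and replicate 2 of IL7-5-5 stood apart from the other libraries of their lines in several genes given below. Of the genes called in IL7-5, 45 of 57 on chromosome 7 and 51 of 65 elsewhere were still called without its replicate 4. Without replicate 2 of the line, 4 of 6 genes on chromosome 7 and 13 of 21 elsewhere were still called in IL7-5-1, and 37 of 41 and 23 of 29 in IL7-5-5.

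The differences lay at the start of the chromosome (see the plot of each line against M82 along chromosome 7). In IL7-5, called genes followed each other with fewer than 20 tested genes between neighbours from Solyc07g005000 to Solyc07g006970 and again from Solyc07g007240 to Solyc07g008620. The runs of IL7-5-5 and IL7-5-P75 shared the outline of IL7-5 but ended earlier. They went from Solyc07g005060 to Solyc07g006970 and from Solyc07g007240 to Solyc07g008300. IL7-5-1 had a single run, from Solyc07g008060 to Solyc07g008300, with 4 called genes among 21 tested. IL7-5-P5 had none. Past these runs, SlPAP27 (Solyc07g008570) was called in IL7-5-P75 and IL7-5-1 and not in IL7-5-5. With fewer than 40 tested genes between neighbours, the runs of IL7-5-P75 and IL7-5-1 reached SlPAP27. That of IL7-5-5 still ended at Solyc07g008300.

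**Figure D1:**
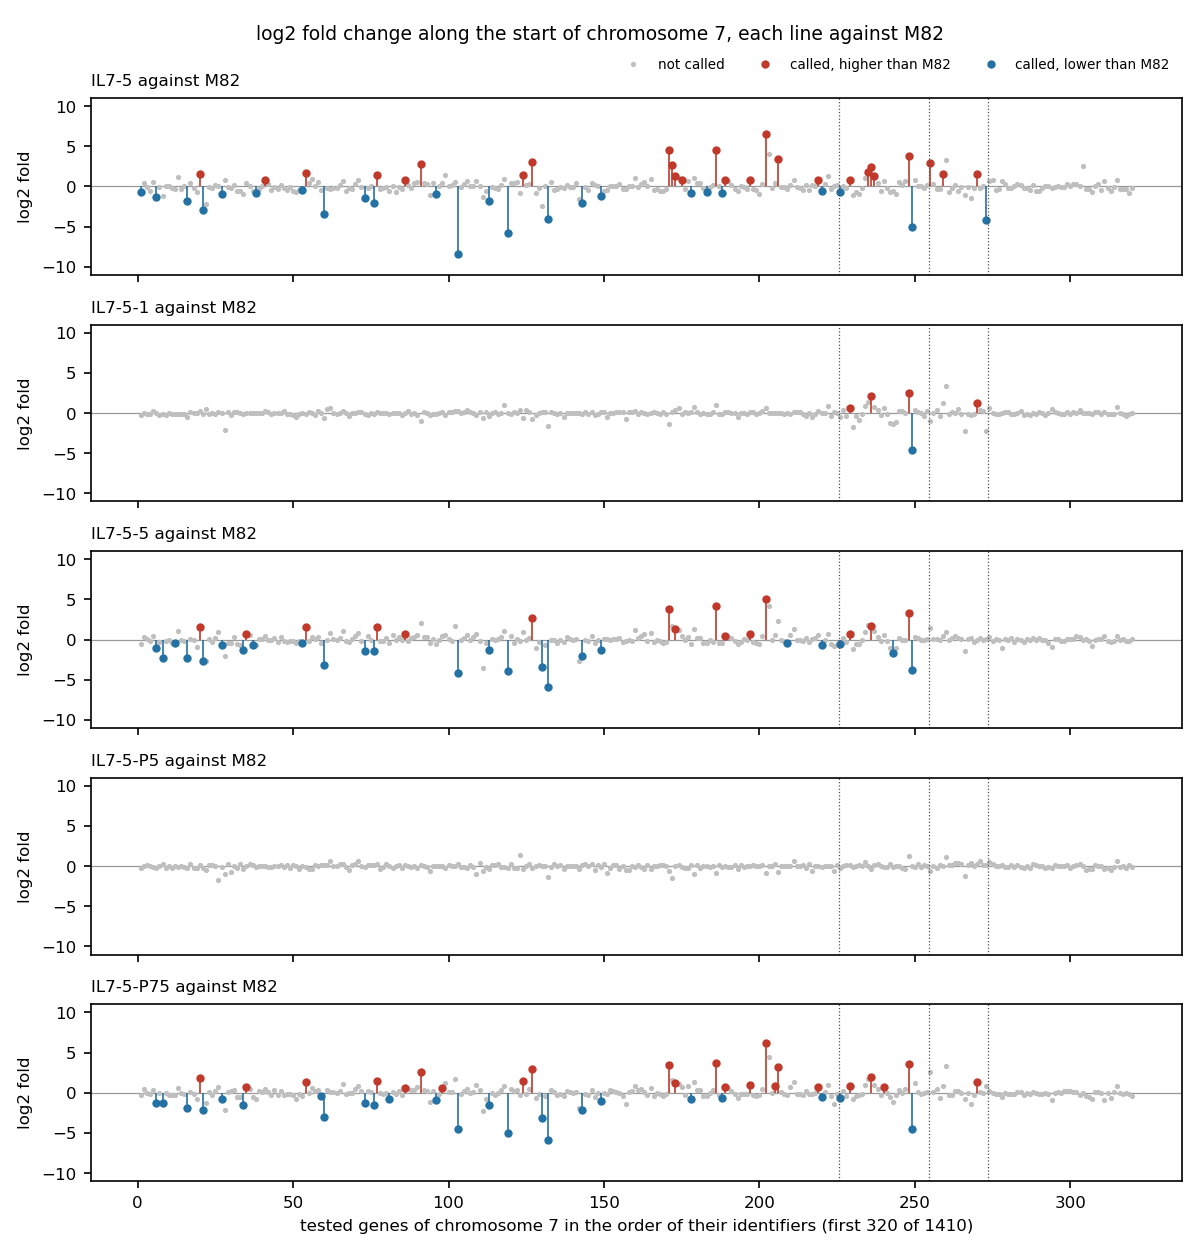
Log2 fold change of each line against M82 (vertical axis) for the first 320 of the 1410 tested genes of chromosome 7, in the order of their identifiers (horizontal axis, 1 panel per line). Red points are genes called higher than M82, blue points genes called lower, grey points genes not called, and dotted lines mark the bounds of the segments named in the text. IL7-5, IL7-5-5 and IL7-5-P75 have called genes from the start of the chromosome on, IL7-5-1 has them only to the right of the first dotted line, and IL7-5-P5 has none.

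The chromosome was divided into 3 segments and the rest, with bounds set after the calls had been seen, so the counts by segment are a description. Segment 1 holds the 225 tested genes before Solyc07g008030. IL7-5 had 39 called genes there, IL7-5-5 33 and IL7-5-P75 40, while IL7-5-1 and IL7-5-P5 had 0. At an unadjusted p under 0.05, IL7-5-1 had 8 genes of segment 1 (3.56%) and IL7-5-P5 12 (5.33%). Off chromosome 7 that p was met by 3.78% of the genes in IL7-5-1 and 3.29% in IL7-5-P5. Neither line had a call in segment 1 by edgeR's exact test or by DESeq2. Segment 2 holds the 29 tested genes from Solyc07g008030 to before Solyc07g008360. IL7-5 had 7 called genes in it, IL7-5-1 4, IL7-5-5 6, IL7-5-P75 6 and IL7-5-P5 0. The count of IL7-5 in segment 2 was 4 without IL7-5 replicate 1 or 3, and that of IL7-5-1 was 1 without M82 replicate 3 and 2 without M82 replicate 2 or IL7-5-1 replicate 3. At an unadjusted p under 0.05, 17 of the 29 genes, or 58.6%, differed in IL7-5-1, against 3.78% of the genes off chromosome 7. Segment 3 holds the 19 tested genes from Solyc07g008360 to before Solyc07g008630, SlPAP27 among them. There IL7-5 had 4 called genes, IL7-5-1 1, IL7-5-P75 1 and both IL7-5-5 and IL7-5-P5 0. By edgeR's exact test and by DESeq2 IL7-5-1 had 2, and IL7-5-5 and IL7-5-P5 again had 0. In IL7-5-5 and IL7-5-P5, no gene of segment 3 had an unadjusted p under 0.05. The count of IL7-5 in segment 3 was 1 without IL7-5 replicate 3 or M82 replicate 2, and 2 without IL7-5 replicate 1 or 4 or M82 replicate 3 or 4, and that of IL7-5-1 was 2 without IL7-5-1 replicate 3. Over the remaining 1137 genes the counts were 7 in IL7-5, 1 in IL7-5-1, 2 in IL7-5-5, 0 in IL7-5-P75 and 0 in IL7-5-P5. These are 0.616% of the genes there in IL7-5, 0.088% in IL7-5-1 and 0.176% in IL7-5-5. Over all tested genes the shares were 0.623%, 0.138% and 0.357%, so calls were no more frequent there than elsewhere. The 7 genes of IL7-5 were 2 without IL7-5 replicate 4, 4 without IL7-5 replicate 3 or M82 replicate 4, and 3 without M82 replicate 2.

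All these comparisons share the 4 M82 libraries. With the mean of the 65 lines that carry an introgression on another chromosome in place of M82, the calls were 1.63% of all genes in IL7-5, 0.322% in IL7-5-1, 0.541% in IL7-5-5, 0.128% in IL7-5-P5 and 1.64% in IL7-5-P75. In segment 1 they numbered 65 in IL7-5, 61 in IL7-5-5, 68 in IL7-5-P75 and 0 in both IL7-5-1 and IL7-5-P5. In segment 2 they were 11 in each of IL7-5, IL7-5-1 and IL7-5-5, 9 in IL7-5-P75 and 0 in IL7-5-P5, and in segment 3 they were 5 in IL7-5, 4 in IL7-5-1, 4 in IL7-5-P75 and 0 in both IL7-5-5 and IL7-5-P5. Over the rest of chromosome 7 they were 27 in IL7-5, 4 in IL7-5-1, 3 in IL7-5-5, 1 in IL7-5-P5 and 8 in IL7-5-P75. Of the genes called against M82 on chromosome 7, 55 of 57 in IL7-5, 5 of 6 in IL7-5-1, 39 of 41 in IL7-5-5 and 46 of 47 in IL7-5-P75 were also called against these lines, in the same direction. Comparisons with the 65 lines, here and below, are with their mean on the log scale, and single lines among them can lie beyond it. Lines without reads of a gene pull this mean down, so a higher level is called more readily and a lower one hardly.

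In total 72 genes of chromosome 7 were called in at least 1 line, 28 of them in 1 line, 13 in 2, 27 in 3 and 4 in 4, and none was called in opposite directions. The largest group, 26 genes, was called in IL7-5, IL7-5-5 and IL7-5-P75, with 11 higher and 15 lower than in M82. A further 17 genes were called in IL7-5 alone, 5 in IL7-5-5 alone, 5 in IL7-5-P75 alone and 1 in IL7-5-1 alone. A call in a single line does not show that the lines differ, which is tested by the comparisons of the lines with each other below.

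Segment 1 held large differences. Solyc07g006300 had 0, 0 and 0 CPM (the reads of a gene scaled to a fixed library total) in the 3 IL7-5 libraries, 0, 1.51, 0 and 0.506 CPM in IL7-5-5, and 0.28, 1.1, 0 and 0 CPM in IL7-5-P75, against 10, 9.34, 6.02 and 9.04 CPM in M82. Every library of these 3 lines was below every M82 library, while IL7-5-1 (8.16 to 15 CPM) and IL7-5-P5 (8.09 to 16.1 CPM) overlapped M82. IL7-5 was at least 43.8-fold lower than M82, taking 3 counts over its libraries as the floor (adjusted p = 9.2e-20), and the log2 fold change in IL7-5-5 was -4.12 ± 0.43 (SE, the standard error, adjusted p = 1.2e-15). S. pennellii was near 0 as well, at 0.0785 ± 0.136 CPM (SD, n = 3). Solyc07g006570 had the same pattern, with means of 0.0929 CPM in IL7-5, 0.588 CPM in IL7-5-5 and 0.231 CPM in IL7-5-P75, against 8.85 ± 1.59 CPM in M82 (SD, n = 4). Both genes kept their calls in these lines in all the alternatives that could test them.

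Solyc07g007750 moved the other way. It had 8.72, 22.7 and 10.9 CPM in IL7-5, 3.19, 2.71, 9.86 and 2.03 CPM in IL7-5-5, and 6.99, 7.91, 13.9 and 12 CPM in IL7-5-P75, against 0, 0.397, 0 and 0 CPM in M82. The gene was therefore close to silent in M82, in IL7-5-1 (0 to 0.517 CPM) and in IL7-5-P5 (0 to 0.242 CPM), and read in every library of the other 3 lines (adjusted p = 2.8e-18 in IL7-5, 4.4e-07 in IL7-5-5 and 2.6e-15 in IL7-5-P75). The replicates varied widely within these lines, and IL7-5-5 was lower than IL7-5 (log2 fold change -1.55 ± 0.34, SE, adjusted p = 0.0045), with overlapping libraries and no call without IL7-5 replicate 3 or IL7-5-5 replicate 1, 2 or 4. In S. pennellii it averaged 136 ± 41.4 CPM (SD, n = 3), above every one of the lines. Solyc07g007240 was likewise higher in IL7-5 (9.06 to 32.6 CPM), IL7-5-5 (3.61 to 17.3 CPM) and IL7-5-P75 (4.39 to 14.6 CPM), against 0 to 1.26 CPM in M82, but S. pennellii had 0.236 to 2.98 CPM, which overlaps M82.

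Moderate differences in well-expressed genes of segment 1 were tighter. Solyc07g005060, the first gene called in 3 lines, had 20.2, 12.7 and 12.7 CPM in IL7-5, 23.9, 16.0, 16.1 and 16.0 CPM in IL7-5-5, and 19.6, 15.4, 11.8 and 13.6 CPM in IL7-5-P75, against 36.8, 39.3, 37.2 and 37.8 CPM in M82. IL7-5-1 (31.6 to 46.7 CPM) overlapped M82 and IL7-5-P5 (30.8 to 33.2 CPM) lay under it, without a call (adjusted p = 1). Solyc07g005950 averaged 7.54 CPM in IL7-5, 12 CPM in IL7-5-5 and 11 CPM in IL7-5-P75, against 32.0 ± 3.67 CPM in M82 (SD, n = 4), and S. pennellii was at 10 CPM. In both genes the lines stood near the level of the donor parent. Solyc07g005950 was not named by the fixed rules given below.

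Other genes of segment 1 did not stand at the donor's level. Solyc07g006890 had 39.1, 56.6 and 33.5 CPM in IL7-5, 42.4, 29.8, 42.4 and 57.7 CPM in IL7-5-5, and 45.3, 38.4, 28.4 and 35.6 CPM in IL7-5-P75, against 210, 159, 159 and 157 CPM in M82. S. pennellii had 208, 181 and 147 CPM and overlapped M82, so the lines were lower than both parents (log2 fold change of IL7-5 against S. pennellii -2.06 ± 0.21, SE, adjusted p = 4.6e-18). In the opposite direction, Solyc07g005240 averaged 24.7 ± 5.09 CPM in IL7-5, 26.5 ± 3.60 CPM in IL7-5-5 and 30.2 ± 5.03 CPM in IL7-5-P75, against 8.40 ± 2.21 CPM in M82 (SD), while S. pennellii had 7.99 ± 1.37 CPM. Solyc07g007290 averaged 32.3, 33.5 and 29.9 CPM in IL7-5, IL7-5-5 and IL7-5-P75, against 13.4 CPM in M82, with S. pennellii lower still at 6.99 CPM. For these genes the reads of a line and of M82 were mapped to different reference sequences, and how much of the difference comes from the mapping was not tested. Solyc07g006890, Solyc07g005240 and Solyc07g007290 were chosen after their values were seen.

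**Figure D2:**
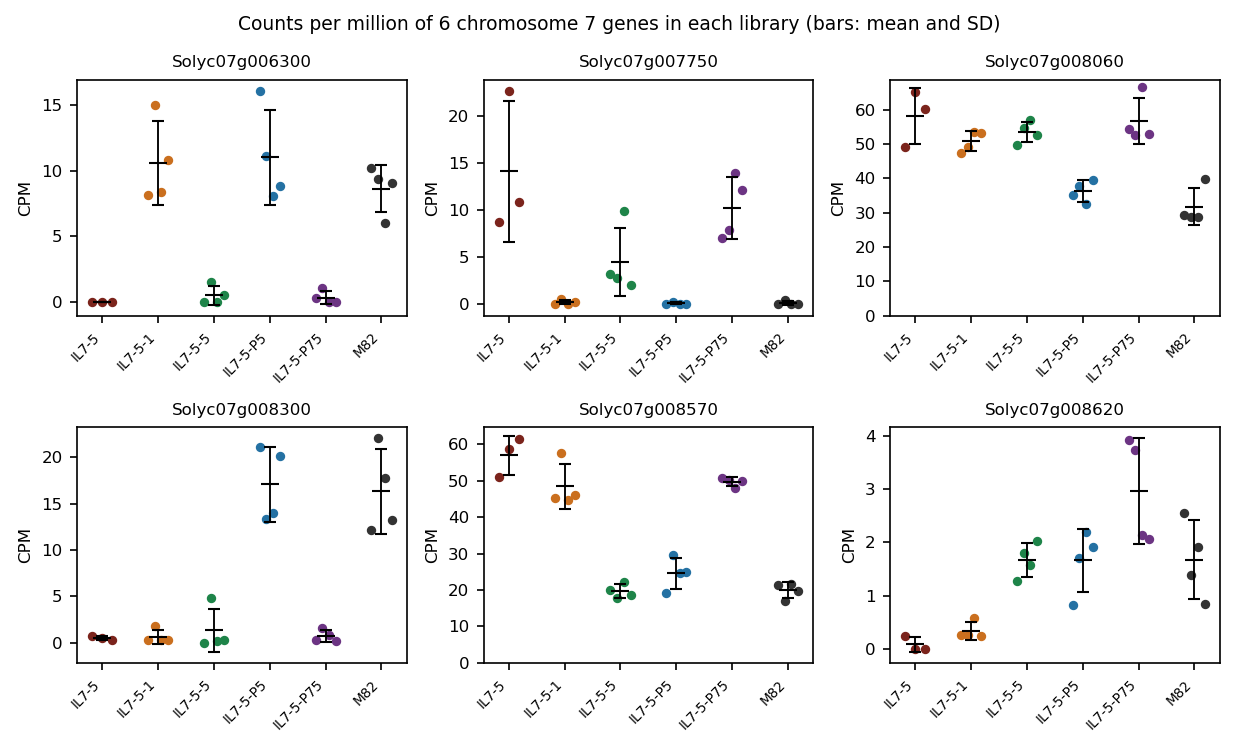
CPM (vertical axis) of 6 chromosome 7 genes in each library of the 5 lines and, at the right, of M82, with the mean and SD of each group as bars. Solyc07g006300 and Solyc07g007750 set IL7-5, IL7-5-5 and IL7-5-P75 apart from the rest, Solyc07g008060 and Solyc07g008300 set IL7-5-1 with them, and SlPAP27 (Solyc07g008570) sets IL7-5, IL7-5-1 and IL7-5-P75 apart.

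The lines were also compared with the donor parent, and in segment 1 they split in the same way. IL7-5 differed from S. pennellii in 16.0% of the 225 genes, IL7-5-5 in 16.4% and IL7-5-P75 in 14.2%, while IL7-5-1 differed in 32.4% and IL7-5-P5 in 36.0%. Over all genes these comparisons called 31.6% for IL7-5, 34.3% for IL7-5-5, 33.5% for IL7-5-P75, 35.2% for IL7-5-1 and 36.9% for IL7-5-P5. S. pennellii differed from M82 in 34.7% of segment 1. The lines with calls against M82 there thus differed from the donor in fewer genes than M82 did, in 32 to 37 of the 225. The small segments did not divide in this manner. In segment 2, 17.2% of the 29 genes were called in IL7-5, 27.6% in each of IL7-5-1 and IL7-5-5, 34.5% in IL7-5-P75 and 48.3% in IL7-5-P5, against 48.3% between S. pennellii and M82. In segment 3 the share was 31.6% of the 19 genes in IL7-5-5 and 36.8% in the other 4 lines, as between S. pennellii and M82.

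Segment 2 was the stretch in which IL7-5-1 joined the other lines. Solyc07g008060 had 49.1, 65.0 and 60.2 CPM in IL7-5, 47.4, 49.2, 53.4 and 53.1 CPM in IL7-5-1, 49.7, 54.5, 56.9 and 52.7 CPM in IL7-5-5, and 54.3, 52.7, 66.6 and 52.9 CPM in IL7-5-P75, against 29.4, 28.8, 28.8 and 39.7 CPM in M82. All 4 lines lay above M82 without overlap, and IL7-5-P5 (32.4 to 39.6 CPM) overlapped it. The increase in IL7-5-1 (log2 fold change 0.67 ± 0.13, SE, adjusted p = 0.0004) missed the threshold without M82 replicate 2 or 3, at adjusted p-values of 0.012 and 0.013.

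Solyc07g008300, at the end of segment 2, had 0.747, 0.51 and 0.279 CPM in IL7-5, 0.255, 1.81, 0.29 and 0.245 CPM in IL7-5-1, 0, 4.82, 0.224 and 0.253 CPM in IL7-5-5, and 0.28, 1.54, 0.803 and 0.206 CPM in IL7-5-P75, against 12, 22.1, 17.8 and 13.2 CPM in M82. It was lower in these 4 lines in every alternative run, while IL7-5-P5 had 13.3 to 21.1 CPM, the level of M82. The log2 fold change in IL7-5-1 was -4.60 ± 0.51 (SE, adjusted p = 4.1e-13), and S. pennellii had 0.87 CPM. Next to it, Solyc07g008290 averaged 6.44 CPM in IL7-5, 2.61 CPM in IL7-5-1, 4.4 CPM in IL7-5-5 and 5.32 CPM in IL7-5-P75, against 0.452 CPM in M82. For that gene the call in IL7-5-1 (adjusted p = 0.0083) held in 5 of 16 alternatives and was lost on leaving out any library of IL7-5-1 or M82 (adjusted p up to 0.13). Solyc07g008130 was also higher in the 4 lines, with means of 63.8, 51.7, 39.9 and 45.9 CPM in IL7-5, IL7-5-1, IL7-5-5 and IL7-5-P75, against 12.0 ± 4.60 CPM in M82 (SD, n = 4) and 9.76 ± 4.15 CPM in IL7-5-P5. Its call in IL7-5-5 (adjusted p = 0.0084) held in 9 of 17 alternatives, with adjusted p-values of up to 0.12 on leaving out IL7-5-5 replicate 1, 3 or 4 or any library of M82. The calls of this gene in IL7-5-1 and IL7-5-P75 were lost without M82 replicate 3, and also without IL7-5-1 replicate 3 and IL7-5-P75 replicate 4, at adjusted p-values between 0.011 and 0.023.

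The direct comparison with IL7-5 shows between which genes the calls of IL7-5-1 change, but it does not locate the end of the introgressed DNA. The authors caution that counts at the bounds of introgressions may be suspect, above all in IL7-5-1, IL7-5-P5 and IL7-5-P75. Solyc07g007970, the gene of highest order in segment 1 that differed between them, averaged 31.0 ± 2.31 CPM in IL7-5-1 and 19.5 ± 1.76 CPM in IL7-5 (SD, log2 fold change 0.66 ± 0.14, SE, adjusted p = 0.0008). In this gene IL7-5-1 was at the level of M82 (30.4 ± 4.86 CPM, SD). A few genes further on, Solyc07g008030 averaged 52.1 ± 4.91 CPM in IL7-5-1, against 73.9 ± 5.26 CPM in M82 (SD), without overlap of the libraries, but the difference missed the threshold (log2 fold change -0.51 ± 0.12, SE, adjusted p = 0.034). Solyc07g008060 was the first gene called in IL7-5-1. None of the 29 genes of segment 2 was called between IL7-5-1 and IL7-5 by edgeR's quasi-likelihood test, its exact test or DESeq2. An unadjusted p under 0.05 was met by 4 of the 29 (13.8%), against 10.4% of the genes off chromosome 7. Between IL7-5-P5 and IL7-5, 8 of the 29 genes were called, which became 4 and 3 without IL7-5 replicates 1 and 3 and 5 without IL7-5-P5 replicate 1 or 2.

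In segment 3 the sublines parted again. SlPAP27 had 20.1, 17.8, 22.2 and 18.5 CPM in IL7-5-5, against 51.1, 58.6 and 61.5 CPM in IL7-5, a log2 fold change of -1.54 ± 0.20 (SE, adjusted p = 6.9e-10). With M82 at 21.4, 16.9, 21.6 and 19.8 CPM, IL7-5-5 overlapped M82 completely (log2 fold change -0.01 ± 0.20, SE). IL7-5-P75 was higher than IL7-5-5 by 1.34 ± 0.19 on the log2 scale (SE, adjusted p = 4.7e-08). The 4 libraries of IL7-5-P75 for SlPAP27 (47.9 to 50.9 CPM) and those of IL7-5-1 (44.7 to 57.7 CPM) stood apart from those of IL7-5-P5 (19.1 to 29.5 CPM). S. pennellii was at 71.3 ± 11 CPM (SD, n = 3) for SlPAP27. Its neighbour and paralog Solyc07g008550 was not called in any of the 5 lines, with means between 26.3 CPM in IL7-5-P75 and 34.8 CPM in IL7-5-P5, against 33.3 ± 1.11 CPM in M82 (SD, n = 4). S. pennellii had less of the paralog, 13.4 CPM. How reads are shared between SlPAP27 and Solyc07g008550 depends on the reference and was not tested.

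The last gene of the region set IL7-5-P75 apart. Solyc07g008620 was a low gene with 3.92, 3.73, 2.14 and 2.06 CPM in IL7-5-P75, against 0.249, 0 and 0 CPM in IL7-5 (adjusted p = 4.6e-05). That difference was lost without IL7-5 replicate 4 and with DESeq2. In IL7-5-1 it had 0.255, 0.259, 0.58 and 0.245 CPM, below every library of IL7-5-P75 (adjusted p = 0.00077), and IL7-5-5 and IL7-5-P5 (means 1.67 and 1.66 CPM) overlapped M82 (0.841 to 2.56 CPM). The decrease of IL7-5 against M82 (adjusted p = 0.008) was lost without IL7-5 replicate 1, 3 or 4 or M82 replicate 1, 2 or 3, at adjusted p-values of up to 0.084. Against the 65 lines with an introgression elsewhere Solyc07g008620 was lower in IL7-5 (adjusted p = 1.3e-05) and in IL7-5-1 (log2 fold change -2.51, adjusted p = 0.0038), and not called in IL7-5-P75 (0.56, adjusted p = 0.44). In SlPAP27, by contrast, IL7-5-1 and IL7-5-P75 were both higher than M82, so IL7-5-P75 stood with IL7-5 in SlPAP27 and with M82 in Solyc07g008620. Solyc07g008360, at the start of segment 3, had 4.75, 2.42, 1.61 and 4.94 CPM in IL7-5-P75 and 0.51, 0.259, 0.29 and 0 CPM in IL7-5-1 (adjusted p = 0.0056). In IL7-5 it varied between 1.12 and 8.47 CPM and overlapped M82 (0.21 to 1.28 CPM), with an adjusted p of 0.0068. Solyc07g008360, Solyc07g008030 and Solyc07g007970 were chosen after their values were seen.

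Tested directly, the sublines fell into the same classes. On chromosome 7, IL7-5-P75 differed from IL7-5 in 3 genes (0.0613% of all genes called) and IL7-5-5 in 6 (0.153%), whereas IL7-5-1 differed from IL7-5 in 44 (0.664%) and IL7-5-P5 in 62 (0.776%). Without IL7-5 replicate 3 the counts of IL7-5-1 and IL7-5-P5 were 24 and 38, and without IL7-5 replicate 4 that of IL7-5-P75 was 0. In segment 1 the counts were 0 in IL7-5-P75, 1 in IL7-5-5 (Solyc07g007750), 35 in IL7-5-1 and 42 in IL7-5-P5. The 35 genes of IL7-5-1 were 22 without IL7-5 replicate 3. At an unadjusted p under 0.05, IL7-5-P75 differed from IL7-5 in 20 genes of segment 1, and edgeR's exact test and DESeq2 called none of them. The 20 genes are 8.89% of segment 1, near the 8.4% of genes off chromosome 7 that met that p in the same comparison. Between IL7-5-P75 and IL7-5-5, edgeR's quasi-likelihood test called no gene of segment 1 (15 at an unadjusted p under 0.05) or segment 2 (2 at that p) and 1 gene of segment 3, SlPAP27 (0.174% of all genes called). Between IL7-5-P5 and IL7-5-1 it called 0 of the 225 genes of segment 1 (12 at that p), 4 of segment 2 and 1 of segment 3, SlPAP27 (0.0868% of all genes called). In segment 1 the shares at that p were 6.67% between IL7-5-P75 and IL7-5-5 and 5.33% between IL7-5-P5 and IL7-5-1. Off chromosome 7 they were 5.73% and 4.43%. The other pairs split more widely on chromosome 7, with 34 genes called in IL7-5-5 against IL7-5-1 (0.306% of all genes), 42 in IL7-5-P75 against IL7-5-1 (0.694%), 49 in IL7-5-P5 against IL7-5-5 (0.388%) and 53 in IL7-5-P75 against IL7-5-P5 (0.572%). Over all chromosomes the counts against IL7-5 rested on its 3 libraries. Without IL7-5 replicate 3 they were 34 in place of 130 for IL7-5-1, 18 in place of 30 for IL7-5-5 and 53 in place of 152 for IL7-5-P5, and without IL7-5 replicate 1 they were 79, 14 and 94. Single libraries of the sublines mattered too: the count of IL7-5-1 was 82 without IL7-5-1 replicate 1, that of IL7-5-5 was 15 without IL7-5-5 replicate 4, and that of IL7-5-P5 was 99 without IL7-5-P5 replicate 4.

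A comparison that shares no library with another gives a check of the map. IL7-5 against IL7-5-P5 holds none of the libraries of IL7-5-P75 against M82, and 38 of the 47 chromosome 7 genes called in IL7-5-P75 were called there in the same direction, against 0.776% of all genes called in it. Of the 41 genes of chromosome 7 called in IL7-5-5, 29 were called there too. In IL7-5 against IL7-5-1 the numbers were 29 of 47 and 25 of 41, against 0.664% of all genes. Off chromosome 7 fewer genes were shared. In IL7-5 against IL7-5-P5, 13 of the 41 genes called in IL7-5-P75 and 7 of the 29 called in IL7-5-5 were also called, and in IL7-5 against IL7-5-1 the numbers were 10 of 41 and 0 of 29.

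**Figure D3:**
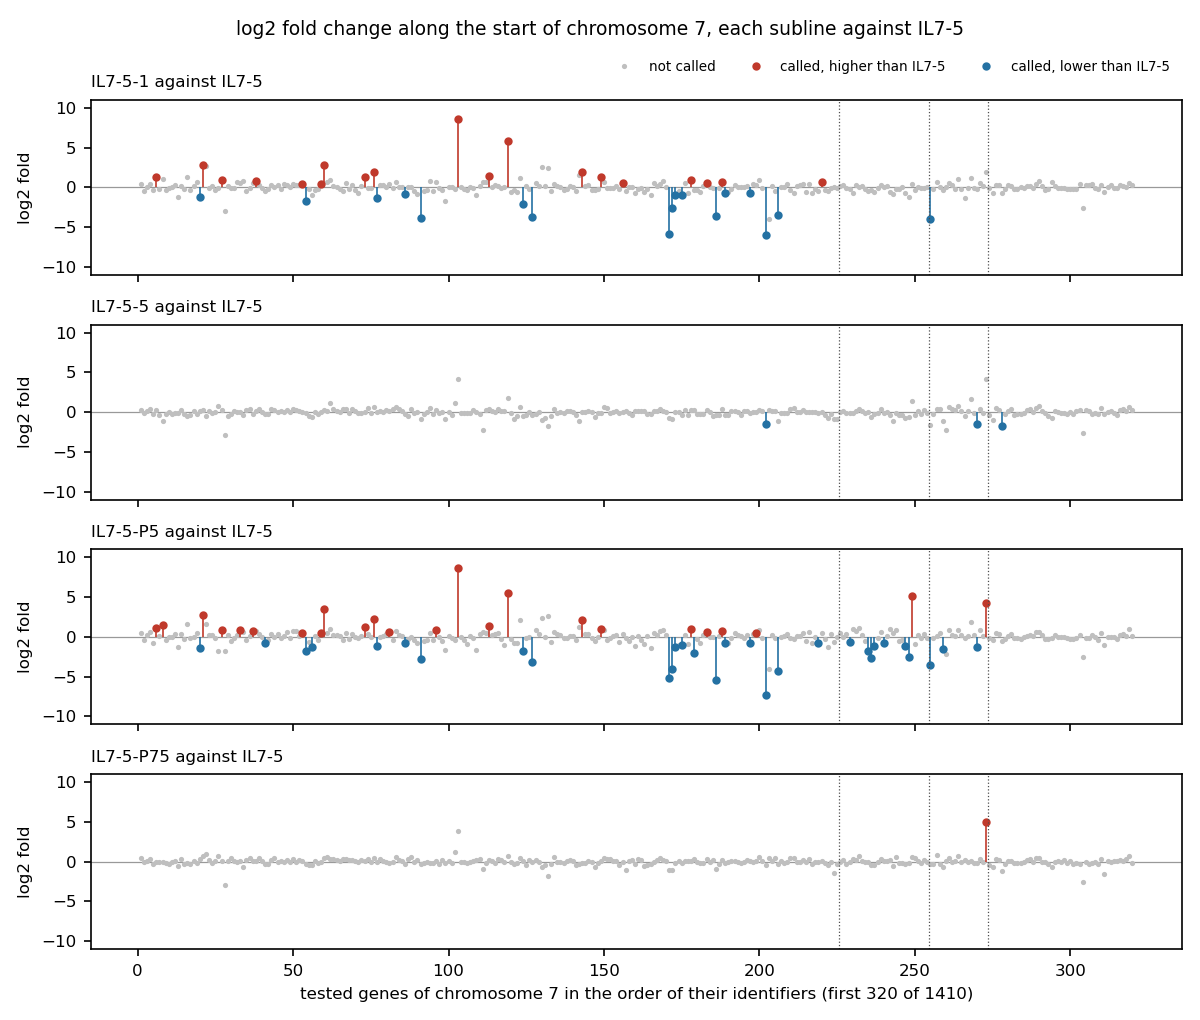
Log2 fold change of each subline against IL7-5 (vertical axis) for the first 320 of the 1410 tested genes of chromosome 7 in the order of their identifiers (horizontal axis, 1 panel per subline), with colours and dotted lines as in the plot against M82. IL7-5-1 and IL7-5-P5 differ from IL7-5 across the first segment, IL7-5-P5 also across the next segments, and IL7-5-5 and IL7-5-P75 in few genes.

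Beyond these segments, where calls against M82 were no more frequent than among all genes, a few genes of chromosome 7 went with single lines. Solyc07g048040 had 17.5, 8.73, 13.7 and 12 CPM in IL7-5-5, against 0.96, 1.19, 2.74 and 2.31 CPM in M82, and was not called in the other 4 lines, whose libraries reached at most 2.66 CPM. The increase in IL7-5-5 (log2 fold change 2.82 ± 0.26, SE, adjusted p = 4.7e-19) held in all 16 alternatives, and IL7-5-5 was also higher than IL7-5 (3.99 ± 0.32, adjusted p = 2.5e-23). S. pennellii had 24.7 CPM and IL7-4, another IL of chromosome 7, had 15.6 CPM of Solyc07g048040. M82 was low among the lines in this gene, since the median of the 65 lines with an introgression elsewhere was 13.3 CPM and 45 of them had a mean above that of M82. Against the mean of those lines IL7-5-5 was higher by a log2 fold change of 1.05 (adjusted p = 4.7e-10), and IL7-5 (-2.94), IL7-5-1 (-2.24), IL7-5-P5 (-1.81) and IL7-5-P75 (-1.88) were lower (adjusted p at most 2.4e-10). In IL7-5, Solyc07g025160 had 18.4, 9.43 and 6.97 CPM, against 28.8, 31.4, 23 and 20.2 CPM in M82 (log2 fold change -1.21 ± 0.20, SE, adjusted p = 6.2e-06), and it missed the threshold only without IL7-5 replicate 4 (adjusted p = 0.01, rounded). All 4 sublines were higher than IL7-5 in Solyc07g025160 (adjusted p-values between 5.6e-06 and 4.6e-05). In IL7-5-1, Solyc07g055060 had 71.1, 55.1, 58.6 and 55.6 CPM, against 129, 94.8, 135 and 99.5 CPM in M82 (adjusted p = 0.0017). That call was lost without M82 replicate 1 or 3, without IL7-5-1 replicate 2, 3 or 4, and against the 65 lines with an introgression elsewhere, at adjusted p-values of 0.012 to 0.026.

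Replicate 4 of IL7-5 stood apart in some of these genes. Solyc07g032080 had 2.24, 3.31 and 13.8 CPM in IL7-5 replicates 1, 3 and 4, against 0.96 to 2.74 CPM in M82, and Solyc07g023990 had 0.996, 0.255 and 2.93 CPM, against 0 to 0.199 CPM in M82. In both genes the third library was the highest, and S. pennellii (99.0 and 30.3 CPM) and IL7-4 (111 and 33.9 CPM) were far above all libraries of IL7-5. Without IL7-5 replicate 4 both calls were lost, at adjusted p-values between 0.012 and 0.41 for Solyc07g032080 over its lost alternatives and between 0.016 and 0.19 for Solyc07g023990. The same replicate also differed off chromosome 7, in the genes given further on.

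Off chromosome 7, IL7-5 differed from M82 in 65 genes (52 higher and 13 lower), IL7-5-1 in 21 (11 and 10), IL7-5-5 in 29 (18 and 11), IL7-5-P5 in 7 (3 and 4) and IL7-5-P75 in 41 (30 and 11). These counts moved with single libraries. That of IL7-5 was 36 without IL7-5 replicate 1, 18 without IL7-5 replicate 3, and 24, 40 and 27 without M82 replicates 2, 3 and 4. That of IL7-5-P75 was 24 and 27 without M82 replicates 2 and 4, and without M82 replicate 4 that of IL7-5-1 was 12 and that of IL7-5-P5 was 4. Together 107 genes were called, 79 of them in 1 line and 4 in all 5. Among the 107 are 2 genes whose identifiers place them on no chromosome, Solyc00g042840 and Solyc00g257110, so the files do not show on which chromosome they lie. At an unadjusted p under 0.05 IL7-5 stood out with 14.9% of the genes off chromosome 7, against 3.29% to 5.62% in the 4 sublines.

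The 4 genes called in all 5 lines were Solyc03g114800, which was higher than in M82, and Solyc11g015900, Solyc11g016930 and Solyc12g098400, which were lower. Solyc03g114800 averaged between 15.8 CPM in IL7-5-1 and 17.1 CPM in IL7-5-P5, against 6.08, 9.74, 6.02 and 4.63 CPM in M82, without overlap. Against the 65 lines with an introgression elsewhere none of the 5 was called for this gene (log2 fold changes of 0.32 to 0.43, adjusted p between 0.15 and 0.7), and the mean of 52 of those 65 lines was above that of M82. M82 was thus low among the lines of the series in Solyc03g114800. Without M82 replicate 4 the gene was not called in IL7-5-1 and IL7-5-P5, nor in IL7-5-1 without IL7-5-1 replicate 2, at adjusted p-values of at least 0.017.

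Solyc12g098400 had 0, 0 and 0.976 CPM in IL7-5, 0 to 1.29 CPM in IL7-5-1, 0 to 0.602 CPM in IL7-5-5, 0 to 0.554 CPM in IL7-5-P5 and 1.87 to 3.09 CPM in IL7-5-P75, against 7.68, 10.5, 11 and 16.8 CPM in M82. Here too M82 was unusual, since 38 of the 65 lines had a mean below 0.1 of that of M82, and their median was 0.528 CPM. Set against the mean of these lines, IL7-5-P75 was higher (log2 fold change 1.64, adjusted p = 6.9e-05) and the other 4 were not called. The lowest of the 65 means was 0 CPM, so a lower line could hardly be called in this gene. Solyc12g010760 had the same form except in IL7-5-P5, which with 13.3, 15.5, 11 and 14.4 CPM matched M82 (13.1, 15.5, 11 and 12.6 CPM), while IL7-5, IL7-5-1 and IL7-5-5 stayed at or below 0.319 CPM. IL7-5-P75 was intermediate in Solyc12g010760 with 0.559, 4.39, 2.94 and 1.65 CPM, lower than M82 (log2 fold change -2.42 ± 0.33, SE, adjusted p = 1.8e-09) and higher than IL7-5 (adjusted p = 0.0053). Among the 65 lines, 42 had a mean of Solyc12g010760 below 0.1 of that of M82. Against the mean of the 65 lines, IL7-5-P5 (4.47, adjusted p = 1e-58) and IL7-5-P75 (2.00, adjusted p = 1.1e-06) were called higher, and the others were not called. There too the lowest of the 65 means was 0 CPM, so a lower line could hardly be called.

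Solyc11g015900 and Solyc11g016930 held up better against the other lines. Solyc11g015900 averaged 0.651 CPM in IL7-5, 0.776 CPM in IL7-5-1, 1.18 CPM in IL7-5-5, 1.28 CPM in IL7-5-P5 and 0.853 CPM in IL7-5-P75, against 5.44, 7.35, 4.93 and 3.78 CPM in M82, with no library of the lines above 2.41 CPM. Its median over the 65 lines was 4.69 CPM, and 4 of the 5 lines were called lower than the mean of those lines, at log2 fold changes of -1.48 to -2.25. The exception was IL7-5-P5 (-1.3, adjusted p = 0.022), whose call against M82 was also lost without M82 replicate 2. Solyc11g016930 averaged between 1.1 CPM in IL7-5-P5 and 1.88 CPM in IL7-5, against 3.52, 9.74, 5.75 and 8.62 CPM in M82, and the median of the 65 lines was 6.33 CPM. It was called lower than the mean of those lines in the 4 sublines (log2 fold changes of -1.29 to -1.79) and missed the threshold in IL7-5 (-1.11, adjusted p = 0.017). IL7-4, whose introgression is also on chromosome 7, had 4.55 CPM of Solyc11g015900 and 6.64 CPM of Solyc11g016930 and was not called against M82 in either.

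**Figure D4:**
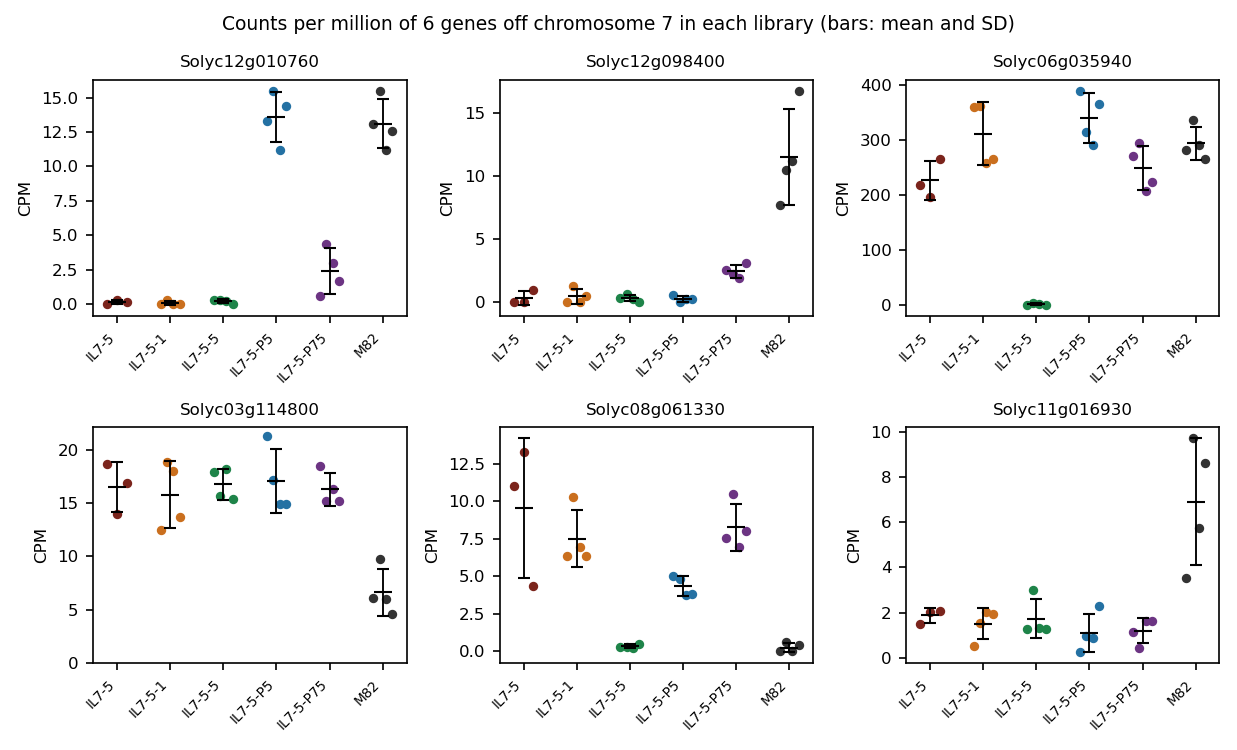
CPM (vertical axis) of 6 genes off chromosome 7 in each library of the 5 lines and, at the right, of M82, with the mean and SD of each group as bars. In Solyc03g114800, Solyc12g098400 and Solyc11g016930 the 5 lines differ from M82, in Solyc06g035940 IL7-5-5 differs from the other lines and from M82, and in Solyc12g010760 and Solyc08g061330 the sublines differ from each other.

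Among the genes not placed on chromosome 7, 2 higher and 2 lower ones were called in IL7-5, IL7-5-1, IL7-5-5 and IL7-5-P75 but not in IL7-5-P5. The lower ones were Solyc12g010760, given above, and Solyc01g081250, given at the end. In these, M82 was high among the lines, since 10 and 6 of the 65 lines had a mean above that of M82. The higher ones are given here. Solyc00g042840, whose identifier places it on no chromosome, had 20.9, 25.2 and 18.8 CPM in IL7-5, 18.8 to 27.9 CPM in IL7-5-1, 10 to 16.9 CPM in IL7-5-5 and 17.3 to 29.2 CPM in IL7-5-P75, against 5.12, 4.57, 2.19 and 4.21 CPM in M82. IL7-5-P5 (3.06 to 4.02 CPM) overlapped M82 and was lower than IL7-5 (log2 fold change -2.55 ± 0.24, SE, adjusted p = 4.3e-18). Solyc08g082560 had the same form, with means of 14.5, 12.8, 12.9 and 13.1 CPM in IL7-5, IL7-5-1, IL7-5-5 and IL7-5-P75, against 6.00 ± 1.3 CPM in M82 (SD, n = 4) and 5.41 CPM in IL7-5-P5. These 4 lines are those with called genes in segment 2. All 4 were also higher than the mean of the 65 other lines for both genes (adjusted p at most 1.7e-06). Single lines among the 65 reached means of up to 25.4 CPM of Solyc00g042840 and 14.4 CPM of Solyc08g082560. IL7-4 had 21.2 CPM of Solyc00g042840 and 11 CPM of Solyc08g082560, and S. pennellii 0.0553 CPM and 13.8 CPM. Solyc00g042840 and Solyc08g082560 were chosen after their values were seen.

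A set of 11 genes was called higher in IL7-5 and IL7-5-P75 and in no other line: Solyc01g094970, Solyc01g095530, Solyc03g005320, Solyc04g014280, Solyc04g077210, Solyc05g010010, Solyc05g052280, Solyc06g054060, Solyc08g083090, Solyc09g010510 and Solyc09g082300. Solyc06g054060 had 20.2, 29.6 and 5.16 CPM in IL7-5 and 13.4, 13.0, 19.5 and 20 CPM in IL7-5-P75, against 2.56, 0.994, 1.92 and 1.26 CPM in M82. IL7-5-P75 was higher than IL7-5-P5 (1.88 CPM, adjusted p = 3.6e-05) and IL7-5-1 (0.0612 CPM, adjusted p = 6.8e-09) in this gene, and IL7-5-5, without a call, lay between them at 7.07 CPM. Over the 11 genes, the median log2 ratio to the M82 mean, with 0.5 CPM added, was 2.48, 2.98 and 0.65 in IL7-5 replicates 1, 3 and 4 and 1.90 to 2.46 in IL7-5-P75. It was 0.61 to 1.53 in the libraries of IL7-5-5, -1.22 to -0.17 in those of IL7-5-1, -0.22 to 0.08 in those of IL7-5-P5, -0.51 to 0.49 in those of M82 and 2.36 to 3.31 in S. pennellii. The 11 genes, among them the example Solyc06g054060, were not named by the fixed rules given below. They were chosen by their calls in IL7-5 and IL7-5-P75 and the lack of one in the other 3 lines, all against M82. The values of the 5 lines and M82 are therefore a description. The S. pennellii libraries took no part in the choice, but their ratio is to the M82 mean, which did, so it is not independent of it. In 37 to 63 of the 65 lines with an introgression elsewhere the mean of each of these genes was above that of M82. Against the mean of the 65 lines, Solyc03g005320 was called neither in IL7-5 (adjusted p = 0.024) nor in IL7-5-P75 (0.011). Solyc04g077210 was not called in IL7-5 (0.15), nor Solyc05g052280 (0.3) and Solyc08g083090 (0.014) in IL7-5-P75. The remaining genes of the set were called higher in both lines. The same ratio over all 52 genes that were higher off chromosome 7 in IL7-5 was 1.86, 2.19 and 0.90 in its 3 libraries, and IL7-5 replicate 4 was the lowest in both sets.

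**Figure D5:**
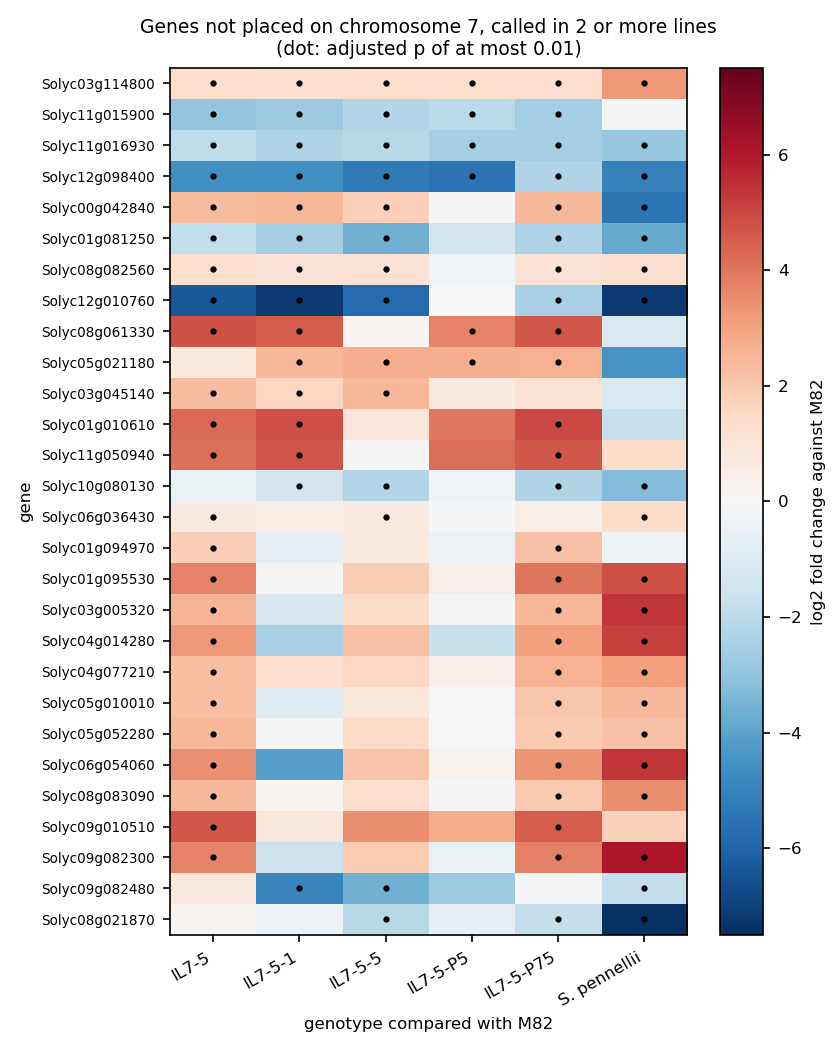
Log2 fold change against M82 (colour scale) of the 28 genes not placed on chromosome 7 that were called in 2 or more lines (rows) in the 5 lines and, at the right, S. pennellii (columns), with a dot where the gene was called. The 4 genes in the top rows are called in all 5 lines, and the block of 11 genes called in IL7-5 and IL7-5-P75 alone is pale in IL7-5-P5 except for Solyc04g014280 and Solyc09g010510.

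Some genes set a single line apart from others of the 5 by direct test. Solyc06g035940 had 0.956, 4.22, 1.79 and 1.01 CPM in IL7-5-5, against 283, 337, 291 and 265 CPM in M82 (log2 fold change -7.21 ± 0.65, SE, adjusted p = 1.3e-19), and IL7-5-5 was lower than IL7-5 (197 to 266 CPM, adjusted p = 5.1e-17) and each other subline. S. pennellii had 1.57 CPM. Low levels of Solyc06g035940 were common in the series, since 27 of the 65 lines with an introgression elsewhere had a mean below 0.1 of that of M82. Solyc08g061330 was close to 0 in M82 (0, 0.596, 0 and 0.421 CPM) and IL7-5-5 (0.224 to 0.506 CPM), whereas the libraries ranged over 4.32 to 13.3 CPM in IL7-5, 6.36 to 10 CPM in IL7-5-1, 3.72 to 4.99 CPM in IL7-5-P5 and 6.96 to 10.5 CPM in IL7-5-P75. Each of these 4 lines was higher than M82 (adjusted p at most 0.00022), and IL7-5-5 was lower than IL7-5 (log2 fold change -4.63 ± 0.60, SE, adjusted p = 6.9e-10), although S. pennellii itself had 0.144 CPM. In Solyc01g010610 and Solyc11g050940, both at 0 in 3 of the 4 M82 libraries, IL7-5-5 averaged 0.127 and 0.0797 CPM, lower than IL7-5-1 (2.41 and 2.25 CPM) and IL7-5-P75 (2.66 and 2.18 CPM, adjusted p between 0.00013 and 0.00048). IL7-5-P5, at 1.34 and 1.53 CPM, was not called against M82 in them (adjusted p = 0.074 and 0.029). It was called higher than the mean of the 65 lines in both. The log2 fold changes were 2.71 (adjusted p = 2.1e-07) and 2.4 (adjusted p = 6.7e-06). In Solyc08g061330, Solyc01g010610 and Solyc11g050940, IL7-5, IL7-5-1, IL7-5-P5 and IL7-5-P75 were all called higher than that mean, and IL7-5-5 was not called. The medians of the 65 lines were 0.475, 0.13 and 0.202 CPM. Their lowest means were 0 CPM, so a lower line could hardly be called. The call of Solyc11g050940 in IL7-5 was lost without IL7-5 replicate 3 or 4 or M82 replicate 1, 2 or 3 (adjusted p up to 0.046), and that of Solyc01g010610 without M82 replicate 2 (adjusted p = 0.022).

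IL7-5 differed from all its sublines in Solyc11g011570. The libraries had 0, 0, 0 and 0 CPM in IL7-5-1, 0 to 0.301 CPM in IL7-5-5, 0 to 0.575 CPM in IL7-5-P5 and 0 to 1.65 CPM in IL7-5-P75, against 5.73, 10.5 and 3.9 CPM in IL7-5. Each subline was lower than IL7-5 (adjusted p at most 1.3e-05), and IL7-5-1 was at least 31.1-fold lower with 3 counts over the group as the floor. M82 had 0, 0.397, 0 and 0 CPM, S. pennellii was at 0.0553 CPM, and the median of the 65 lines was 1.64 CPM, so IL7-5 was not alone in reading Solyc11g011570. In Solyc05g021180 the reverse held, with means of 3.2, 3.71, 3.76 and 3.62 CPM in IL7-5-1, IL7-5-5, IL7-5-P5 and IL7-5-P75, against 0.509 ± 0.386 CPM in M82 (SD, n = 4) and 0.249, 0 and 1.81 CPM in IL7-5, which was not called. Its median over the 65 lines was 2.18 CPM, and 43 of them had a mean above that of M82, which was thus low among the lines. Against the mean of the 65 lines the 4 sublines were called higher (log2 fold changes of 1.84 to 2.07). IL7-5 was not called (0.05, adjusted p = 0.62), and the lowest of the 65 means was 0 CPM. Of the sublines, IL7-5-P5 passed the threshold against IL7-5 (log2 fold change 2.01 ± 0.47, SE, adjusted p = 0.0044) and the others had adjusted p-values of 0.02 to 0.041. The call in IL7-5-1 for Solyc05g021180 was lost without M82 replicate 1, 2 or 4 or IL7-5-1 replicate 1, 3 or 4 (adjusted p up to 0.074), and that in IL7-5-P5 without M82 replicate 1 or 4 (adjusted p up to 0.088).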

How the data were processed

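Raw mapped read counts per gene and library were used as the authors deposited them. Per the methods and the deposit's own description, 50 bp single-end reads were mapped with BWA to coding sequences, using for each line a reference that was chimeric, with S. pennellii sequence inside the introgression and M82 sequence outside it, and were counted with samtools. The version of either tool is not given in the sources used here. A mapping difference between the 2 kinds of sequence can enter the counts of introgressed genes. The bounds of 3 sublines (all but IL7-5-5) came from the authors' own genotyping, and counts of genes at such bounds are less sure. Of the 314 columns, 9 matched no sample and were not used, nor were the rounded normalized values, their means or the authors' table of comparisons, which holds log2 fold changes, p-values and cis or trans labels.

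Genes were tested with edgeR 4.0.16 (R 4.3.3), by the quasi-likelihood F test with TMM factors (0.818 to 1.17) and filterByExpr by genotype. The fit held all 305 libraries of 77 genotypes, 19591 of 29633 genes and 1 dispersion of 0.0235, and p-values were adjusted by Benjamini-Hochberg over all genes tested in a comparison. The SE of a log2 fold change is its size divided by the square root of F. CPM values use TMM library sizes. DESeq2 1.42.0, edgeR's exact test, another normalization, 2 other filters, a looser threshold, the 23 libraries alone, the replicate as a block, another reference and each library left out in turn were tried as alternatives. Segment bounds and the comparisons without shared libraries were added after the data had been seen. The scripts were tested on simulated data.

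The replicate number marks a growth and sequencing round shared by the lines. Deviations from the group means correlated at a mean of 0.134 over 55 pairs of libraries with the same number and -0.0445 over 165 pairs with different numbers. Libraries are separate pools of seedlings, and the highest correlation of log2(count + 1) between 2 libraries was 0.989. The members and lists were chosen with earlier results of these data known. Genes were named by fixed rules: in each line the 5 largest non-overlapping changes on chromosome 7 and the 3 largest off it, the ends of each run, the leading gene of each group of lines, the 5 genes shared by most lines, the 3 largest differences from IL7-5 in each subline, and the paralog pair. Those with values a result turns on are printed, and genes outside the rules are named as such. Counts set the precision: 3 counts over a group were taken as the floor for a group at 0, and such bounds cover counting error only.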

Additional observations from a re-analysis of the deposited data

Results flagged for a closer look

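Some libraries lay far from the others of their group. The named genes called against M82 were examined in M82 and in the sublines where they were called, in 109 groups of 4 libraries. The gap of the highest or lowest library to its neighbour was divided by the group's range, and 19 groups exceeded Dixon's 95% critical value. That value is meant for normally distributed values, which CPM with libraries at 0 are not, so the 19 groups are a description. The ratio was 1 where all but 1 library were at 0 CPM: Solyc09g082480 in IL7-5-1 replicate 3 and IL7-5-5 replicate 3, Solyc12g010760 in IL7-5-1 replicate 2, Solyc01g010610 and Solyc11g050940 in M82 replicate 4, and Solyc07g007750, Solyc07g023990 and Solyc11g011570 in M82 replicate 2. Replicate 2 of IL7-5-1 was set apart in Solyc07g008300 (0.971), SlPAP27 (Solyc07g008570, 0.897) and Solyc08g061330 (0.85), and replicate 2 of IL7-5-5 in Solyc07g008300 (0.947) and Solyc11g016930 (0.955). In each of these 5 cases that library was the highest of its line. The others were Solyc07g005060 in IL7-5-5 replicate 1 (0.976), Solyc07g007450 in IL7-5-P75 replicate 3 (0.84), Solyc07g007750 in IL7-5-5 replicate 3 (0.852), Solyc07g008060 in IL7-5-P75 replicate 3 (0.889) and M82 replicate 4 (0.937), and Solyc07g006970 in M82 replicate 1 (0.908).

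Differences between a subline and IL7-5 were tested directly. On chromosome 7 they were called in 44 genes in IL7-5-1, 6 in IL7-5-5, 62 in IL7-5-P5 and 3 in IL7-5-P75. Solyc09g082480 was lower than IL7-5 in IL7-5-1, IL7-5-5 and IL7-5-P5, at fitted log2 fold changes of -5.72, -4.41 and -3.51. Solyc11g011570 was lower in all 4 sublines, at fitted values of -7.89 in IL7-5-1 (no read, so at least 31.1-fold lower), -6.08 in IL7-5-5, -4.11 in IL7-5-P5 and -3.22 in IL7-5-P75. IL7-5-5 was lower in Solyc06g035940 (-6.84) and Solyc08g061330 (-4.63). IL7-5-P5 was higher in Solyc05g021180 (2.01) and Solyc12g010760 (6.42), and IL7-5-P75 was higher in Solyc12g010760 (3.96). Fitted values against a group with under 4 reads depend on the prior count and are not bounds.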

How the results depend on the processing

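With DESeq2 size factors, no filter, the quasi-likelihood test on 23 libraries, or the replicate block, no count of called genes against M82, on or off chromosome 7, and no total against IL7-5 moved by over 1.5 times. Within those totals, the test on 23 libraries called 143 genes in place of 90 off chromosome 7 in IL7-5-P5 against IL7-5, 14 in place of 8 beyond segment 3 in the same comparison, 2 in place of 4 there in IL7-5-5 against IL7-5, and 2 in place of 1 in segment 3 in both IL7-5-1 against M82 and IL7-5-5 against IL7-5. With the replicate block, IL7-5, IL7-5-1, IL7-5-5, IL7-5-P5 and IL7-5-P75 had 60, 6, 50, 0 and 49 called genes on chromosome 7 and 85, 25, 32, 7 and 49 off it, the sublines IL7-5-1, IL7-5-5, IL7-5-P5 and IL7-5-P75 had 140, 33, 176 and 13 against IL7-5, and all 101 named calls were kept. At an adjusted p of at most 0.05, off chromosome 7 there were 162 calls in IL7-5, 46 in IL7-5-5 and 80 in IL7-5-P75, on it 11 in IL7-5-1, and against IL7-5 204 in IL7-5-1, 55 in IL7-5-5, 328 in IL7-5-P5 and 22 in IL7-5-P75. The exact test called 245, 32, 48, 11 and 89 genes off chromosome 7 in IL7-5, IL7-5-1, IL7-5-5, IL7-5-P5 and IL7-5-P75, on it 10 in IL7-5-1 and 1 in IL7-5-P5, and against IL7-5 214, 89, 596 and 22 in the 4 sublines. DESeq2 called 178 off chromosome 7 in IL7-5, and against IL7-5 57 in IL7-5-5 and 461 in IL7-5-P5. Among genes of at least 5 CPM there were 37, 12, 15, 2 and 22 calls off chromosome 7 in the 5 lines and 85, 14, 93 and 7 against IL7-5, with fewer genes tested. Against the 65 lines with an introgression elsewhere there were 212, 44, 24 and 232 calls off chromosome 7 in IL7-5, IL7-5-1, IL7-5-P5 and IL7-5-P75, and on it 108, 19, 75, 1 and 89 in the 5 lines. IL7-5-P75 was then higher in place of lower in Solyc12g010760 (2.00) and Solyc12g098400 (1.64). In both genes the lowest mean among the 65 lines was 0 CPM. With gaps under 10 tested genes, the runs of called genes numbered 6 in IL7-5, 0 in IL7-5-1, 6 in IL7-5-5 and 5 in IL7-5-P75, and with gaps under 40 they numbered 1 in IL7-5-5 and 1 in IL7-5-P75. The cause of these shifts was not tested.

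Leaving out each library in turn, the chromosome 7 counts ranged over 36 to 53 in IL7-5, 2 to 6 in IL7-5-1, 29 to 40 in IL7-5-5, 0 to 0 in IL7-5-P5 and 38 to 44 in IL7-5-P75. Off chromosome 7 they ranged over 18 to 96, 12 to 20, 21 to 28, 4 to 7 and 24 to 35 in the same lines, and against IL7-5 over 34 to 131 in IL7-5-1, 14 to 27 in IL7-5-5, 53 to 205 in IL7-5-P5 and 10 to 13 in IL7-5-P75. Of the named calls, leaving out a library kept 666 and lost 112 with the direction unchanged, DESeq2 kept 86 and lost 15, no filter kept 97 and lost 4, the quasi-likelihood test on 23 libraries kept 87 and lost 9, and the 65-line reference kept 78, lost 21 and reversed 2.

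IL7-5 had 3 libraries and the other lines 4, and many genes had a few reads per library, so a gene without a call is not shown to be equal. In the introgression, expression and mapping cannot be told apart.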

Other observations

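IL7-5-5 had a cluster of neighbouring genes on chromosome 1. Solyc01g073660, Solyc01g073680 and Solyc01g073690 were called higher than M82 in IL7-5-5 only (log2 fold changes of 1.29, 1.12 and 0.93, adjusted p = 0.0096, 0.0096 and 3.9e-07), while Solyc01g073650 and Solyc01g073670 beside them were not called (adjusted p = 1). In IL7-5 their values were 0.79, 0.82 and 0.43 (adjusted p = 0.24, 0.13 and 0.15). IL7-5-5 and IL7-5 were not called apart in any of the 3. These genes were chosen after their values were seen.

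Solyc09g082480 had 0, 0, 0.29 and 0 CPM in IL7-5-1 and 0, 0, 0.672 and 0 CPM in IL7-5-5, against 0.96, 2.58, 1.92 and 5.05 CPM in M82, and 4.73, 8.41 and 2.51 CPM in IL7-5, which overlapped M82. The calls against M82 held in 10 of 16 alternatives in IL7-5-1 and in 9 of 16 in IL7-5-5. Both were lost by the quasi-likelihood test on the 23 libraries alone, where the exact test kept them, without M82 replicate 4 and against the 65 lines below. That in IL7-5-1 was also lost without IL7-5-1 replicate 1, 2 or 4, and that in IL7-5-5 without IL7-5-5 replicate 1, 2 or 4 and with DESeq2, which kept the call in IL7-5-1. Against the mean of the 65 lines with an introgression elsewhere, whose median was 0.775 CPM, IL7-5 (adjusted p = 6.1e-13) and IL7-5-P75 (adjusted p = 3.5e-05) were higher. The other 3 lines were not called, but the lowest of the 65 means was 0 CPM, so a lower line could hardly be called.

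Solyc01g081250 averaged 4.41 CPM in IL7-5, 2.85 CPM in IL7-5-1, 1.36 CPM in IL7-5-5 and 3.2 CPM in IL7-5-P75, against 15.8 ± 2.84 CPM in M82 (SD, n = 4), and was called lower in these 4 lines. None was called against the 65 other lines (adjusted p between 0.16 and 0.99), of which 6 had a mean above that of M82. Solyc01g081250 was not named by the fixed rules given above.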
